A study of Mus musculus with 5 samples.

Results

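The 8 genes described here encode products of the salivary duct and were followed through 5 single-cell RNA-seq libraries of the mouse submandibular gland and of organoids grown from it (mSGOs). They are the glandular kallikreins Klk1, Klk1b1, Klk1b3, Klk1b9 and Klk1b22, epidermal growth factor (Egf), renin (Ren1) and Fxyd2. The 8 genes were taken by symbol from the gene lists, which hold 31053 genes for 4 libraries and 32285 for the 11-day library, and each had the same Ensembl ID in all 5. For each gene the level and the share of cell barcodes with at least 1 unique molecular identifier (UMI, 1 captured transcript) are given.

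All animals were C57BL/6 mice, and the study's methods state that only females were used. A single library came from tissue taken fresh from the gland, and 4 came from mSGOs: without treatment at 7 days (control) and at 11 days, and at 7 days after 7 Gy of photons or 7 Gy of protons, given on day 5. The labels give an age of 8 to 12 weeks for the mice of every group except the 11-day mSGOs, for which they give none. The study's methods state 8 to 12 weeks for the mice used and name no exception. The mSGOs were cultures of dissociated gland cells in Matrigel, a basement membrane gel, in a medium that itself contained EGF protein. Other animals and a separate sequencing run gave the 11-day mSGOs, and their file header names another software version (7.0.0, against 3.0.1 for the control). Culture age, batch and counting software therefore cannot be told apart in any comparison with the 11-day library. Each group held 1 library, so nothing was tested, and every interval below is a 95% interval for counting error only, without variation between animals or cultures.

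The glandular kallikreins are secreted serine proteases that duct cells of the rodent submandibular gland make in large amounts. Klk1, tissue kallikrein, releases kinins from kininogen, while the Klk1b proteins are close relatives that include the EGF-binding proteins (Klk1b9 and Klk1b22). The granular convoluted tubules, which are far more developed in male mice than in females, store kallikreins, EGF and renin. Fxyd2 is the gamma subunit of the sodium pump (Na,K-ATPase), which drives ion transport in the ducts.

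The 5 kallikreins lie in a single cluster on chromosome 7 (GRCm38.p6, the assembly known as mm10). This cluster holds 14 genes of the Klk1 family within 279 kb, from Klk1b8 at 43950666 to the end of Klk1 at 44229622. Klk1 occupies chr7:44225360-44229622, Klk1b1 chr7:43966751-43971318, Klk1b3 chr7:44198191-44202351, Klk1b9 chr7:43976061-43980376 and Klk1b22 chr7:44112673-44116922, all on the plus strand. Egf lies on the minus strand at chr3:129677574-129755322, Ren1 on the plus strand at chr1:133350674-133360320, and Fxyd2 at chr9:45399709-45410278. Between pairs of the 5 kallikreins, the canonical transcripts were 76.5% to 93.0% identical (median 84.7%). Within the last 500 bases of a transcript, where 3′ reads fall, 30.6% of the 50-base windows of Klk1 also occurred in another transcript of the family, as did 12.0% for Klk1b1, 18.4% for Klk1b3, 12.4% for Klk1b9 and 20.4% for Klk1b22. Counts could therefore be lost or exchanged between these paralogs, and the split of UMIs among them is uncertain.

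The 250 bases before the start of Klk1, 2 EGF-binding kallikreins and Egf are shown because these neighbours and Egf were all at their highest level in the gland and at or near 0 UMIs in 7-day mSGOs. The sequences are from RefSeq on GRCm38.p6, run 5′ to 3′ on the strand of the gene, and capitals mark TTTAAA, which reads the same on both strands.
Klk1, chr7:44225110-44225359: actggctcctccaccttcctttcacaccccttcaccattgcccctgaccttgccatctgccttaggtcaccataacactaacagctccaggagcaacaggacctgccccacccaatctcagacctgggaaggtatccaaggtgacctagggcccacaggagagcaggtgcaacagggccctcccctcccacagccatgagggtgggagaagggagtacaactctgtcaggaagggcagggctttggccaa
Klk1b9, chr7:43975811-43976060: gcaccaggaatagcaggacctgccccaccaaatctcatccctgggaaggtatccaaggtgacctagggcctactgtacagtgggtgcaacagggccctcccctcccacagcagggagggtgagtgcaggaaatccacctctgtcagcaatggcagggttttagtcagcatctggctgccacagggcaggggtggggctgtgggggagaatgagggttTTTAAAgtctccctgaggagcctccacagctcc
Klk1b22, chr7:44112423-44112672: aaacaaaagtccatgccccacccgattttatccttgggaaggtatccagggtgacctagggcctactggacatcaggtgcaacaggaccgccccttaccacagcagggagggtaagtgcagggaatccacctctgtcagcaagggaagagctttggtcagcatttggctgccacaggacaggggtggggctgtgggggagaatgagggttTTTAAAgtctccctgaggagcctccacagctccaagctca
Egf, chr3:129755323-129755572: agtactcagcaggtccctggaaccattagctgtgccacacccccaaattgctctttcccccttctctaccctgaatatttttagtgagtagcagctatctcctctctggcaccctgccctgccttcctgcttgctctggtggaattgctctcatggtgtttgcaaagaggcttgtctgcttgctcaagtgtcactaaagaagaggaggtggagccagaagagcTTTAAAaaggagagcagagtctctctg
TTTAAA began 33 bases before the start at Klk1b9, 40 bases before it at Klk1b22 and 27 bases before it at Egf. It was also present in the same window of Klk1b1 and Klk1b3, but these letters were not in the Klk1 window. The end of the Klk1 window, however, resembles a stretch that lies before TTTAAA in the Klk1b9 and Klk1b22 windows. The Klk1 window is thus out of register with these 2, and a lack of TTTAAA near Klk1 cannot be read from it. The Ren1 window held TATAAA and not TTTAAA. Of 32851 RefSeq promoters, 12.1% held TTTAAA within 250 bases, and 2.37% held it within the last 50 bases. TATAAA was found in 12.4% of them. TGTTCT, part of the site that the androgen receptor recognises, occurred on either strand in the Klk1b3 window alone among the 7 members in the table, against 16.1% of all promoters. A match of these letters is a description of the sequence and not of a bound site. Over the 250 bases before the start, pairs of the 5 kallikreins were 47.5% to 82.5% identical. Pairs with Klk1 were at 47.5% to 53.8%, and the other pairs at 59.2% to 82.5%. The windows were compared as annotated, and the part of the shifted Klk1 window in its low values was not tested.

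The values below rest on barcodes with 200 or more genes and no more than 5% mitochondrial UMIs, likely doublets removed. These were 6494 barcodes of the control, 15610 of the photon, 15325 of the proton, 9484 of the 11-day and 1402 of the tissue library, with 15804359, 25349615, 24792032, 32070703 and 5932095 UMIs. The median barcode held 898.5 to 1049 UMIs in the 7-day libraries, 3025 in the 11-day library and 2385.5 in the tissue. Of the 13547 tissue barcodes deposited, 11597 had fewer than 200 genes and 532 of the rest were over the mitochondrial limit. Each pair of libraries shared 33 to 98 barcode sequences, and leaving these out is among the alternatives of the closing part. The tissue library held all 10 acinar markers, led by Prol1 at 24634.8 CPM (UMIs of a gene per 1000000 UMIs of the library), and 11 of 12 duct markers, while 8 of 10 acinar markers were at 0 in the control and 11 of 12 duct markers were detected there. The tissue also held macrophage, endothelial and erythroid markers (4157, 497 and 3042 CPM in sum), against 14.6, 19.0 and 0 CPM in the control.

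In 7-day mSGOs the duct products were all but absent. The 8 genes gave 32 UMIs in the control library, 31 in the photon and 33 in the proton library, which is 2.02 CPM (1.38 to 2.86), 1.22 CPM (0.831 to 1.74) and 1.33 CPM (0.916 to 1.87). Most of these UMIs were from Fxyd2, and no member was found in more than 0.277% of barcodes.

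Klk1 was at 0 UMIs in the control, and the photon and the proton library held 1 each. The 0 of 6494 control barcodes allows a share of up to 0.0462% with a UMI, and a level of up to 0.190 CPM. Klk1b1, Klk1b3, Klk1b22 and Ren1 were at 0 UMIs in all 3 libraries, which allows up to 0.0192% of photon barcodes and 0.0196% of proton barcodes. Thus 4 of the 8 members were not detectable at this depth in any 7-day library.

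Klk1b9 was found in 9 control barcodes (0.139%), 1 photon barcode (0.00641%) and 0 proton barcodes, with 1 UMI in each. Its photon level was 0.0693-fold that of the control (0.00158 to 0.500). Klk1b9 was thus lower after photons beyond counting error, on 9 UMIs against 1, and also after protons, where the counting interval of 0 against 9 UMIs ended at 0.323-fold. Of the 9 control UMIs, however, 1 lay in barcodes with at least 1% Malat1, a nuclear RNA, and with such barcodes alone the counts were 1, 0 and 0, which leaves no difference to be read. On the scale used for calls, a log2 ratio with 1 CPM added to each level, the differences were -0.59 and -0.65.

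Egf had 4 UMIs in the control library, 4 in the photon library and 1 in the proton library. The photon level was 0.623-fold that of the control (0.116 to 3.35) and the proton level 0.159-fold (0.00324 to 1.61). Neither difference exceeded the counting error.

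Fxyd2 was the member with the most UMIs at this age. It had 19 UMIs in 18 control barcodes (1.20 CPM, 0.724 to 1.88), 25 in 18 photon barcodes (0.986 CPM, 0.638 to 1.46) and 31 in 25 proton barcodes (1.25 CPM, 0.850 to 1.77). The highest count in a single barcode was 2, 7 and 6. The 3 libraries overlapped in level, and the share of barcodes was 0.277% in the control (0.164% to 0.438%), 0.115% after photons (0.0684% to 0.182%) and 0.163% after protons (0.106% to 0.241%). The photon share was lowest and the control share highest, and the intervals of these 2 still overlapped. Barcodes with Fxyd2 were deeper than most, with medians of 5356, 1933 and 1144 UMIs.

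No member passed the threshold for a call in either irradiated library with 1 CPM added, but with 0.1 CPM added Klk1b9 after photons was at -2.26 and passed it. A gene was called when its log2 ratio was at least 1 in size and its counting interval excluded 0, among genes with at least 10 UMIs in the 2 libraries together. For photons against the control 2 members (Klk1b9 and Fxyd2) had 10 UMIs and 0 were called, where 0.857% of all 12719 genes were called (0.629% higher and 0.228% lower). Klk1b9 had 9 UMIs in the control and 1 after photons. It met the filter mainly through the control, so its direction was largely set by the filter. For protons against the control 1 member (Fxyd2) had 10 UMIs and 0 were called, against 1.06% of all genes (0.807% higher and 0.253% lower). For protons against photons it was again 0 of 1, against 0.194% (0.132% higher and 0.062% lower). Summed over the 8 members the log2 ratio was -0.44 for photons, -0.38 for protons and 0.07 for protons against photons. Both irradiated libraries were compared with the same control library.

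**Figure D1:**
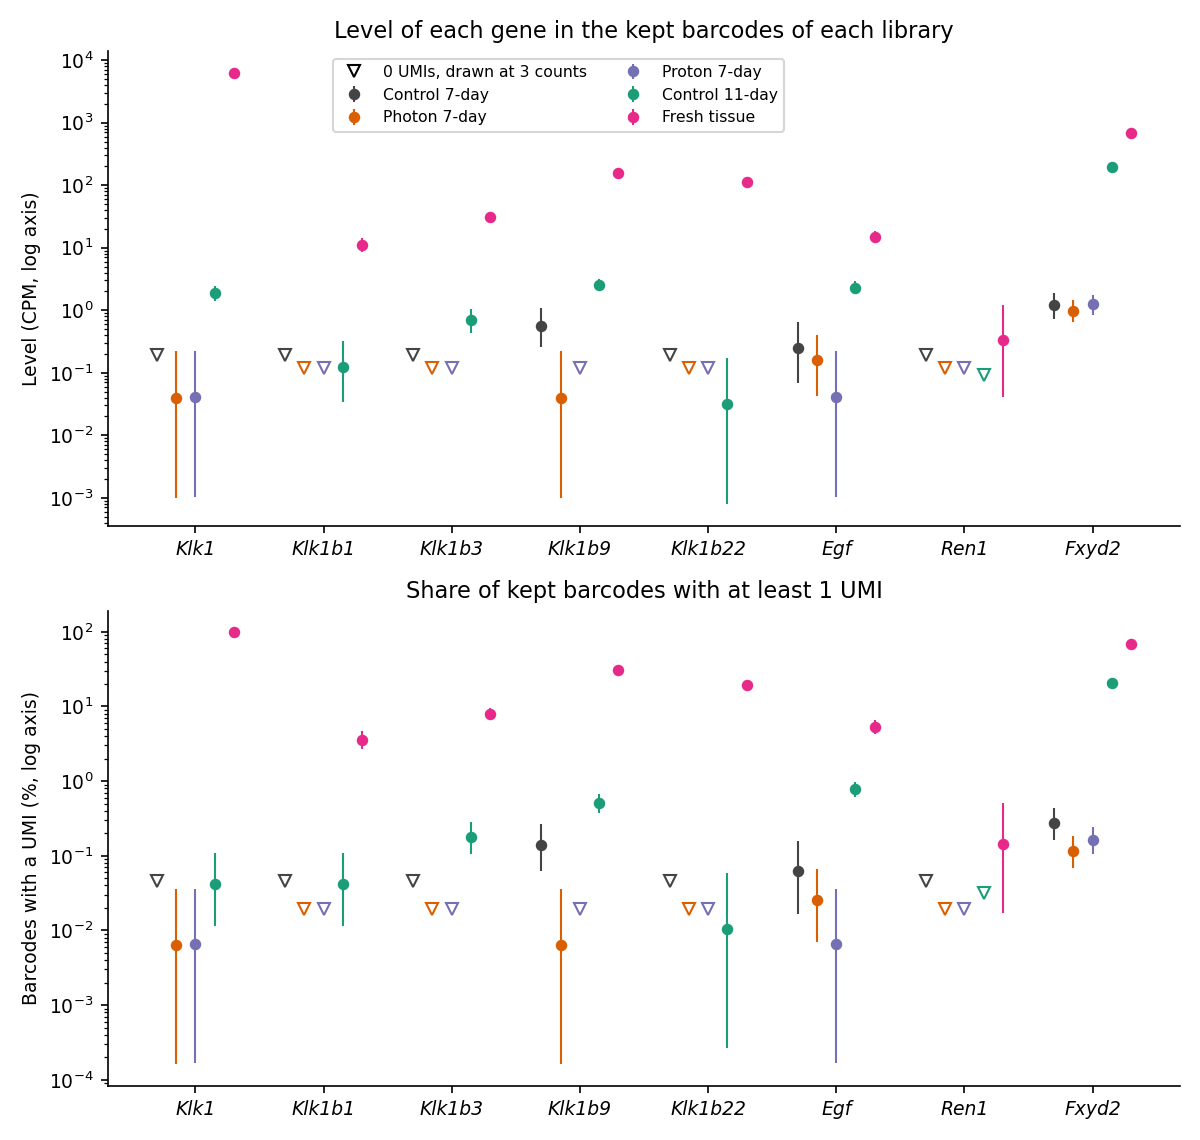
Level of each member in CPM (upper panel) and share of kept barcodes with a UMI in percent (lower panel) in the 5 libraries, both on log axes, with 95% counting intervals as bars. Open triangles mark 0 UMIs, drawn at 3 counts. Tissue points are the highest for every member, 11-day Fxyd2 stands at 199 CPM, and the 7-day points lie near or under 1 CPM.

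In 11-day mSGOs, Fxyd2 was present in 20.8% of barcodes, and traces of kallikrein transcripts appeared in a few barcodes. Fxyd2 had 6386 UMIs, or 199 CPM (194 to 204), in 1974 of 9484 barcodes (20.8%, 20.0% to 21.6%). This was 166-fold the level of 7-day control mSGOs (106 to 275). The libraries also differed in Malat1, which made up at least 1% of the UMIs in 9369 of 9484 barcodes at 11 days and in 1037 of 6494 in the control. With such barcodes alone the log2 ratio of Fxyd2 was 6.63, against 6.51 with all kept barcodes. Of the barcodes with Fxyd2, 805 held a single UMI and the highest held 47. Over the alternatives of the closing part, the share of barcodes with Fxyd2 ran from 7.23% to 27.5%.

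Klk1 had 60 UMIs at 11 days (1.87 CPM, 1.43 to 2.41), all in 4 barcodes (0.0422%). Single barcodes held 30, 21, 8 and 1 of them. The first also carried 34 UMIs of Fxyd2, 16 of Klk1b11, 8 of Klk1b26 and 3 of Klk1b9, and Klk1 made up 1.02% of its UMIs. All 4 barcodes carried Fxyd2, and none of the 4 sequences occurred in the tissue library. The level of Klk1 at this age thus rests on 3 barcodes, and it was at least 9.86-fold higher than in the control, taking 3 counts as the floor of a library at 0. Bounds of this kind leave out the counting error of the higher library.

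Klk1b9 had 82 UMIs in 48 barcodes (2.56 CPM, 2.03 to 3.17), with at most 5 in 1 barcode. This was 4.49-fold the control level (2.25 to 10.2). Klk1b3 had 22 UMIs in 17 barcodes, at least 3.61-fold more than the control at 0. Unlike Klk1, both were spread thinly over barcodes.

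Klk1b1 had 4 UMIs in 4 barcodes and Klk1b22 had 1 UMI, and Ren1 stayed at 0 of 9484 barcodes, which allows up to 0.0316%. Egf had 74 UMIs in 74 barcodes (0.780%, 0.613% to 0.979%), 9.12-fold the control level (3.41 to 34.3). No barcode held more than 1 Egf UMI. Fxyd2 was found in 19 of these 74 barcodes (25.7%), near its share among all 11-day barcodes.

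Of the 5 members with 10 UMIs in the 11-day and control libraries, 4 were called higher (Klk1, Klk1b9, Egf and Fxyd2), and the fifth, Klk1b3, had a log2 ratio of 0.75 (2.97 with 0.1 CPM added, which is past the threshold). Except for Fxyd2 these genes reached 10 UMIs only through the 11-day library, so the direction of the calls was largely set by the filter. The background is high here: 46.5% of all 14908 genes were called, 42.1% higher and 4.41% lower, and the median of all genes was 0.80 on the log2 scale. Relative to that median the log2 ratios were 0.72 for Klk1, 0.38 for Klk1b9, 0.60 for Egf and 5.71 for Fxyd2. Fxyd2 was thus the member that stood more than 1 unit above the shift of the whole library. Under median-of-ratios scaling, which removes such a shift, the log2 ratios were 0.93, 0.51, 0.76 and 5.47, and only Fxyd2 was still past 1.

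Clusters of the 11-day barcodes were built without the members and the other Klk1b genes, so that the members could be read across them. A single cluster of 307 barcodes (cluster 8) held most of the kallikrein UMIs, 532 of the 680 of the Klk1 family, with 65 in cluster 2 and 48 in cluster 4. Cluster 8 held 60 of 60 Klk1 UMIs, 4 of 4 for Klk1b1, the 1 for Klk1b22, 62 of 82 for Klk1b9, 15 of 22 for Klk1b3 and 254 of 354 for Klk1b11, although it made up 3.24% of barcodes. Its leading genes included Hp, Crisp3 and Cst6, and 5 duct markers (Krt8, Krt18, Cldn3, Cftr and Ptprd) were at least 2-fold higher there than in the rest. None of its 10 leading genes was a marker, so it stays unnamed.

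Fxyd2 was also highest in cluster 8, at 1019 CPM (967 to 1072) and in 187 of 307 barcodes (60.9%, 55.2% to 66.4%). In clusters 1, 2, 4 and 5 the share was 27.7%, 21.3%, 28.8% and 22.0%. It was 5.08%, 4.48% and 6.33% in clusters 3, 6 and 7, and 1.61% (2 of 124) in the cycling-like cluster 10, which had the markers Mki67 and Top2a among its leading genes. With every barcode thinned to 500 UMIs, the share was 29.0% in cluster 8, 6.15% to 10.7% in clusters 1, 2, 4 and 5, and at most 3.16% in clusters 3, 6, 7 and 10. Cluster 8 was therefore highest at equal depth as well. The median depth was 4059 UMIs in cluster 8 and 5679.5 UMIs in cluster 10.

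Klk1b9 was found in 30 of 307 barcodes of cluster 8 (9.77%) and in at most 1.26% of any other cluster with 50 or more barcodes. Klk1b3 was found in 12 (3.91%), Klk1b11 in 47 (15.3%) and Egf in 5 (1.63%). Egf did not gather there. Clusters 2 and 4 held 25 and 19 of its 74 UMIs (1.27% and 1.18% of barcodes), and their intervals overlapped that of cluster 8 (0.531% to 3.76%).

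**Figure D2:**
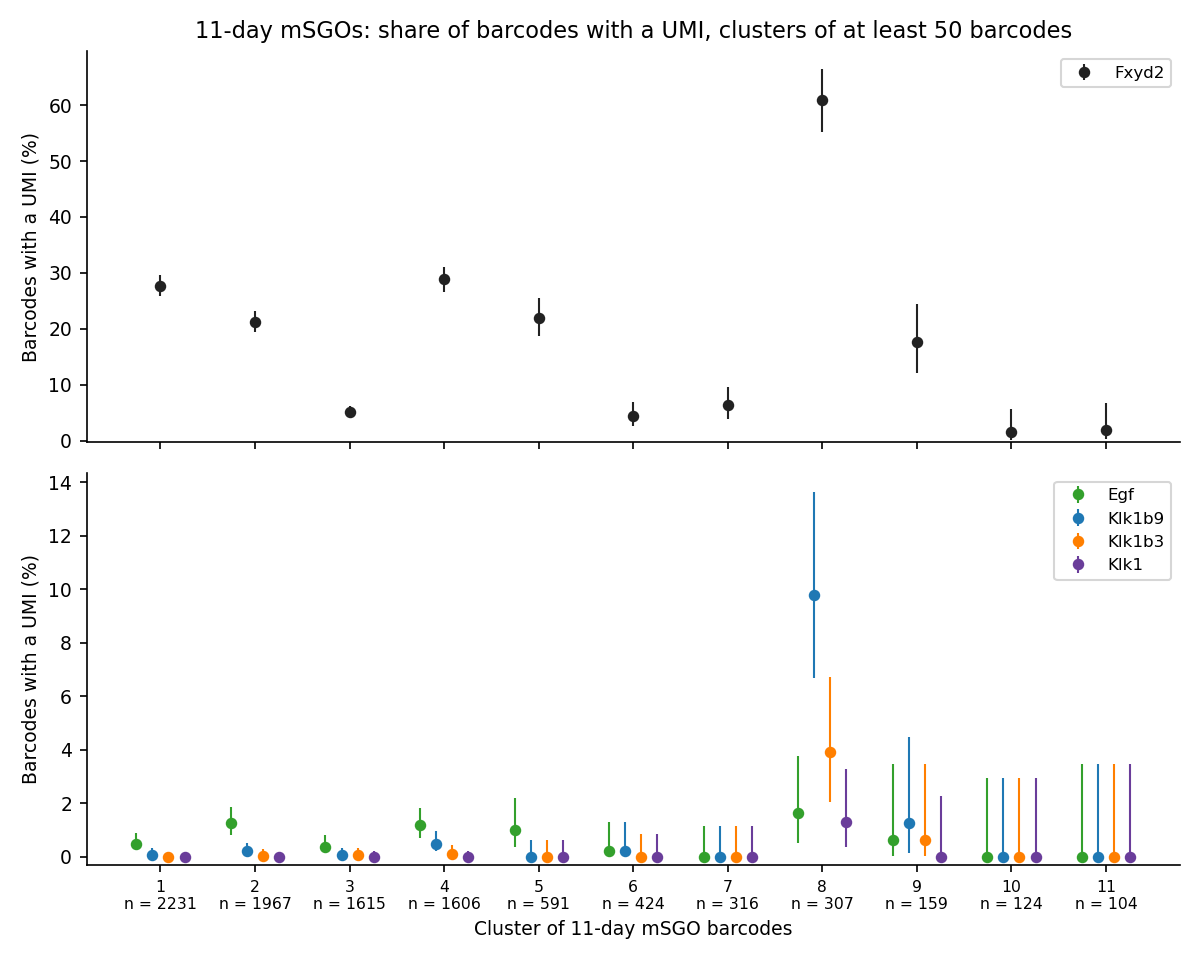
Share of 11-day barcodes with a UMI, in percent, by cluster (n, barcodes), for Fxyd2 (upper panel) and for Egf, Klk1b9, Klk1b3 and Klk1 (lower panel), with 95% counting intervals as bars. Clusters of fewer than 50 barcodes are not drawn. Cluster 8 is highest for Fxyd2 (60.9%), Klk1b9 (9.77%) and Klk1b3 (3.91%), whereas Egf lies at 1.02% to 1.63% in clusters 2, 4, 5 and 8.

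In 7-day mSGOs clustered in the same way, neither Klk1 UMI shared a cluster with the other, and Fxyd2 was in all 6 clusters at 0.860 to 1.51 CPM. The 11-day gradient of Fxyd2 between clusters had no counterpart at this depth. At least 2 members were found together in 1 control barcode, in 0 photon and 0 proton barcodes, in 65 11-day barcodes (0.685%) and in 1112 tissue barcodes (79.3%).

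In fresh tissue every member except Ren1 stood above 10 CPM, and Klk1 was the highest of them. Klk1 had 37553 UMIs in the kept barcodes, or 6330.5 CPM (6267 to 6395), in 1375 of 1402 barcodes (98.1%). Because the control had 0 UMIs, this was at least 33349.7-fold higher. Klk1b9 had 916 UMIs (154 CPM, 145 to 165), 271-fold the control (142 to 595), and was found in 31.2% of barcodes.

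Klk1b22 had 660 UMIs (111 CPM, 103 to 120, 19.5% of barcodes), Klk1b3 had 184 (31.02 CPM, 26.7 to 35.8, 7.92%) and Klk1b1 had 66 (11.1 CPM, 8.60 to 14.2, 3.57%). Against a control at 0 these were at least 586-fold, 163-fold and 58.6-fold higher. These sizes depend on the barcodes kept: in the 25 tissue barcodes with at least 2500 genes, the log2 ratio was 2.03 for Klk1b22 in place of 6.81, 3.74 for Klk1b9 in place of 6.63 and 10.14 for Klk1 in place of 12.63. There it was 0 for Klk1b1 in place of 3.60 and 0.83 for Klk1b3 in place of 5.00, and neither was still called. Fxyd2 had 4023 UMIs (678 CPM, 657 to 699), 564-fold the control (361 to 938), in 69.2% of barcodes. Egf had 88 UMIs (14.8 CPM, 11.9 to 18.3, 5.35%), 58.6-fold the control (22.1 to 219.9).

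Ren1 had 2 UMIs in the kept barcodes (0.337 CPM, 0.0408 to 1.22), with 2 more in barcodes under 200 genes and 0 in those over the mitochondrial limit. Renin transcripts were thus near the limit of detection in all 5 libraries, and the tissue interval overlapped the levels that 0 UMIs allow in the mSGOs.

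The 7 members with 10 UMIs were called higher in tissue than in the control, but 6 of them, all but Fxyd2, reached 10 UMIs only through the tissue library, so this count was largely set by the filter. In this comparison 58.8% of all 12598 genes were called, 11.3% higher and 47.5% lower. The median log2 ratio over the 8 members was 5.82, against -0.92 over all genes. The order of the libraries was the same for Klk1, Klk1b3, Klk1b9, Egf and Fxyd2, with tissue above 11-day mSGOs and these above the 7-day libraries. For Klk1b1 and Klk1b22, the 11-day intervals (0.0340 to 0.319 CPM and 0.000789 to 0.174 CPM) overlapped what 0 UMIs allow in the 7-day libraries. The 3 7-day libraries overlapped one another for all members but Klk1b9.

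The share of tissue barcodes with a member could not be read as expression. In droplet libraries free RNA can give UMIs to barcodes of every kind, so the members were read in clusters of cells that should lack them. The amount of free RNA was not measured here. The macrophage-like cluster had C1qa and C1qb among its 10 leading genes, but also Krt14, a marker of basal duct cells. Whether it held duct cells was not tested. In the macrophage-like cluster (134 barcodes, median 2321.5 UMIs) 99.3% of barcodes had Klk1, and in the 2 endothelial-like clusters (96 and 73 barcodes, medians 2078 and 3556 UMIs) it was 96 of 96 barcodes and 87.7%. For Fxyd2 these 3 clusters stood at 73.1%, 66.7% and 30.1%, for Klk1b9 at 30.6%, 33.3% and 9.59%, and for Klk1b22 at 20.1%, 14.6% and 15.1%. The shares over all kept tissue barcodes, which include barcodes of these clusters, lay within the ranges of these clusters for Klk1, the 4 Klk1b members and Fxyd2. They are therefore not read as expression. Barcodes with fewer than 200 genes had Klk1 at 4153 CPM and in 92.3% of cases, and Egf at 17.7 CPM (15.3 to 20.3), no lower than in the kept barcodes. For Egf the 3 clusters had 2.99% (0.819% to 7.47%), 3.13% (0.649% to 8.86%) and 0 of 73 barcodes, which allows up to 4.11%. The first 2 intervals include the 5.35% over all kept barcodes, so this share is not read as expression either.

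What did separate barcodes was how much of a member they held. The 1934 tissue barcodes with at least 200 genes and no doublet call, those over the mitochondrial limit included, were clustered without the members. Cluster 8 (82 barcodes) was duct-like, with 9 duct markers at least 2-fold higher than in the rest and Cldn4 among its leading genes, together with Slit2, Ppargc1a and Tfcp2l1. Klk1 took 11.8% of its UMIs (118256 CPM) and had a median of 188.5 UMIs per barcode, against 11 in the macrophage-like and 10 and 2 in the endothelial-like clusters. This cluster, 4.24% of the barcodes, held 53.7% of the Klk1 UMIs, 48.8% of those of Egf, 32.8% of Klk1b9, 32.3% of Fxyd2, 27.5% of Klk1b3, 26.6% of Klk1b22 and 33 UMIs of Klk1b1.

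Levels in duct-like cluster 8 were 1172 CPM for Klk1b9 (1078 to 1273), 645 CPM for Klk1b22 (575 to 721), 190.2 CPM for Klk1b3 (153 to 233) and 68.2 CPM for Klk1b1 (47.0 to 95.8). In the macrophage-like cluster they were 168, 104, 17.4 and 14.5 CPM. Klk1b9, Klk1b22 and Klk1b3 therefore stood above the level in cells that should lack them, beyond counting error, as did Klk1b1. Egf was at 298 CPM in cluster 8 (251 to 350) and was found in 38 of 82 barcodes (46.3%). It was at 11.6 and 15.9 CPM in the macrophage-like and the larger endothelial-like cluster, and at 0 UMIs in the smaller one. Fxyd2 was at 6043 CPM in cluster 8 (5826 to 6266), against 867 CPM in the macrophage-like cluster.

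**Figure D3:**
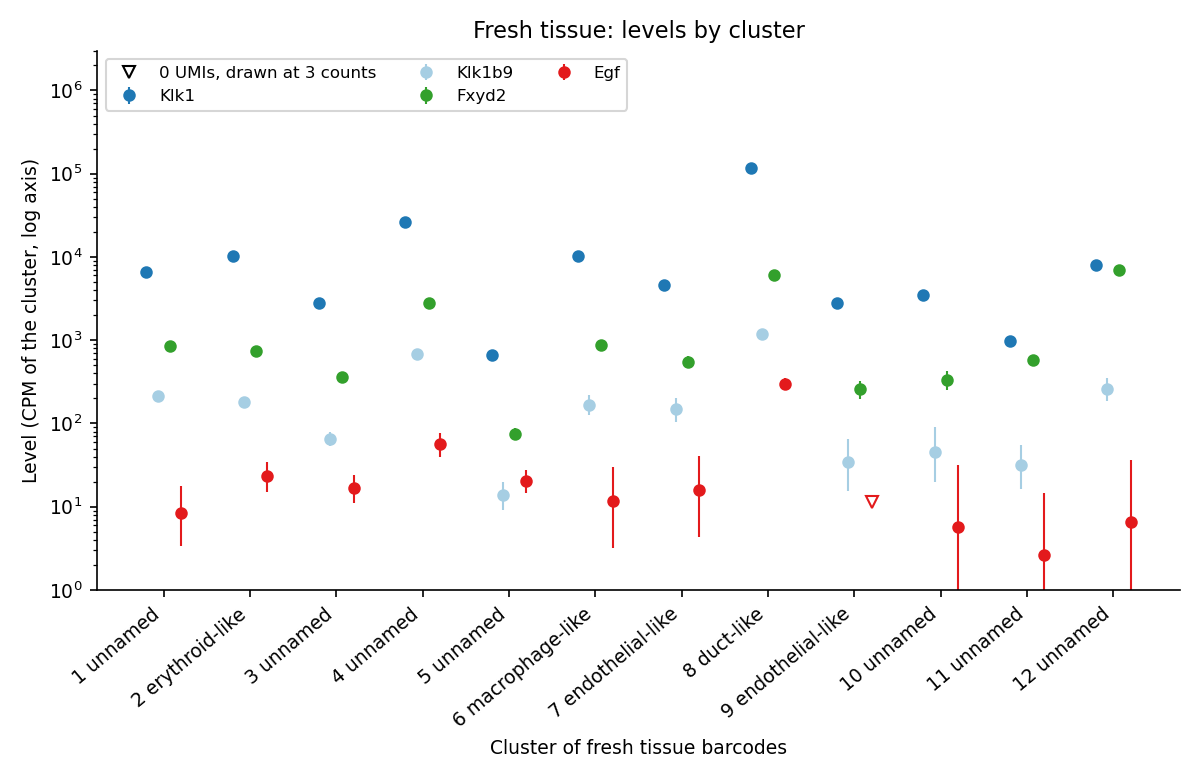
Levels of Klk1, Klk1b9, Fxyd2 and Egf in the 12 clusters of fresh tissue, in CPM of the cluster on a log axis, with 95% counting intervals as bars and an open triangle for 0 UMIs drawn at 3 counts. Klk1, Klk1b9 and Egf are highest in the duct-like cluster 8, Fxyd2 is high in clusters 8 and 12, and Klk1 is present in every cluster.

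A second group of barcodes carried Fxyd2 without the same load of kallikrein. Cluster 12 (42 barcodes) was led by Ascl3 and Foxi1, transcription factors known from ionocytes and a minor duct cell type, and had 5 duct markers at least 2-fold higher (Krt7, Krt8, Krt18, Cldn4 and Epcam). It stays unnamed, since none of these was among its leading genes. Fxyd2 stood there at 6958 CPM (6547 to 7389) and in 38 of 42 barcodes, close to its level in cluster 8, while Klk1 was at 7989 CPM, below the macrophage-like 10351 CPM. Egf had 1 UMI in these 42 barcodes.

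The ratio of both transcripts differed accordingly. Per 100 Klk1 UMIs there were 87.1 Fxyd2 UMIs in cluster 12 (80.2 to 94.6) and 5.11 in cluster 8 (4.92 to 5.30). The macrophage-like cluster had 8.38 (7.42 to 9.43), the endothelial-like clusters 12.0 and 9.15, and barcodes under 200 genes 9.20 (8.92 to 9.49). The ratio was thus below that of barcodes under 200 genes in cluster 8 and above it in cluster 12, while other clusters also differed among themselves, with 12.8 in cluster 1 and 7.32 in cluster 2. The part of free RNA in these ratios was not tested. Cluster 11 (54 barcodes, unnamed, led by S100a8 and with 8 macrophage markers) also had a high ratio of 59.2, from 221 Fxyd2 UMIs in 27 barcodes.

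The makeup of the kallikrein UMIs differed less between clusters than the ratio of Fxyd2 to Klk1. Klk1b genes, all 13 of them together, gave 10.3% of the Klk1-family UMIs in the duct-like cluster 8 (10.1% to 10.5%), 12.1% in the macrophage-like cluster, 22.1% and 16.6% in the endothelial-like clusters and 20.7% in barcodes under 200 genes (20.3% to 21.0%). Clusters 11 and 12 stood at 21.5% and 18.9%, close to the barcodes under 200 genes. In 11-day mSGOs Klk1b genes gave 620 of 680 family UMIs (91.2%, 88.8% to 93.2%), against 20.0% in the kept tissue barcodes. The kallikrein UMIs of 11-day mSGOs were thus mostly Klk1b11 and other Klk1b genes, and those of tissue mostly Klk1. This contrast is limited by the uncertain split among paralogs and by the different software versions of the 2 libraries. At 11 days 354 of the 680 UMIs were from Klk1b11, in 73 barcodes. Fxyd2 outnumbered Klk1 by 10643 to 100 in 11-day mSGOs, whereas in kept tissue barcodes it stood at 10.7 to 100.

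Cluster 5 (176 barcodes, unnamed, led by Smgc and Etv1 and with the acinar markers Aqp5, Bhlha15, Prol1, Lpo and Car6) had the lowest levels of Klk1 (664 CPM) and Fxyd2 (74.5 CPM) of the 12 clusters, although its median depth was 5814 UMIs. Egf was found there in 31 barcodes (17.6%) at 20.4 CPM (14.6 to 27.8), and in 1.14% of barcodes once all were thinned to 500 UMIs. Cluster 4 (289 barcodes, unnamed) was led by mitochondrially encoded genes and had Klk1 at 26646 CPM.

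Most barcodes rich in Klk1 lay over the mitochondrial limit. Of the 82 duct-like barcodes 73 exceeded 5% mitochondrial UMIs (cluster median 17.5%), so only 9 were among the kept barcodes on which the library levels above rest. The 532 tissue barcodes over the limit held 44.7% of all deposited Klk1 UMIs, at 29031 CPM, against 24.3% in the kept and 30.7% in the barcodes under 200 genes. They held 41.4% of Egf (87.3 CPM) and 37.3% of Fxyd2 (2119 CPM) as well. With the barcodes over the limit kept, the summed log2 ratio of tissue to control was 12.24 in place of 11.24.

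Within cluster 8 the load varied widely. Klk1 made up 0.193% to 38.3% of the UMIs of a duct-like barcode, with a median of 5.86%, and was over 5% in 46 of 82. Such a load was not particular to the duct-like barcodes, since 49 of the 289 barcodes of cluster 4, led by mitochondrially encoded genes, were also over 5% (cluster median 1.02%). Across all 13547 deposited tissue barcodes, 128 had over 5% Klk1, and these held 46.9% of all Klk1 UMIs. Of the 128, 66 were over the mitochondrial limit, 19 had fewer than 200 genes and 43 were kept. How far the mitochondrial share of these barcodes bears on their Klk1 level was not tested.

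**Figure D4:**
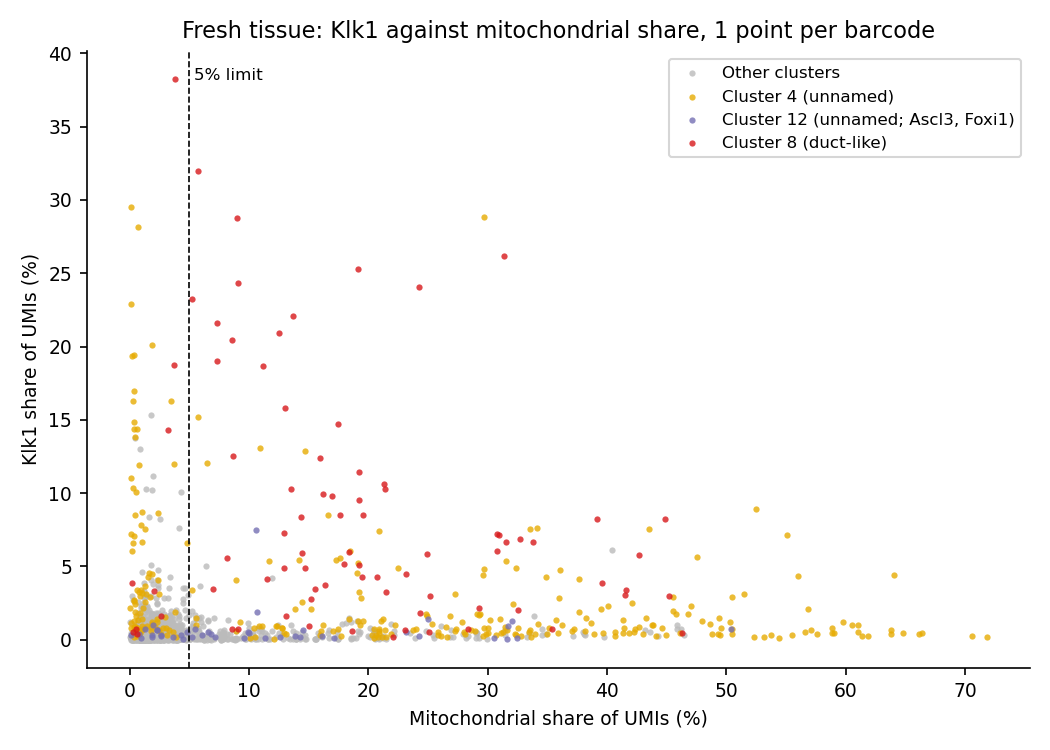
Klk1 share of UMIs against mitochondrial share of UMIs, both in percent, for each fresh tissue barcode with at least 200 genes and no doublet call, coloured by cluster. The dashed line is the 5% limit. Of the 82 duct-like barcodes 73 lie to its right, and the highest Klk1 share is 38.3%.

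Across the 1402 kept tissue barcodes, the non-member genes most like Klk1 in their pattern were Klk1b26 (Pearson r = 0.56 of log-scaled UMIs), Klk1b11 (0.45) and Klk1b5 (0.43) of 3456 genes compared, and among the members Fxyd2 had r = 0.57 and Klk1b9 r = 0.40. Klk1b26 was also first for Klk1b3 (0.29), Klk1b9 (0.38), Klk1b22 (0.37) and Fxyd2 (0.36). Crisp3 was among the first 3 for both Klk1b9 (0.31) and Fxyd2 (0.33). Across the 9484 11-day barcodes the genes most like Fxyd2 were Ptprd (0.23), Chchd10 (0.22) and Orm3 (0.22) of 12075. These points share a library, its free RNA and their depth, so the values describe barcodes of 1 library each.

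The other 9 kallikreins of the cluster were also detected in tissue. All 9 were called higher than in the control, where 11.3% of all genes were, from Klk1b24 (5.39 CPM) to Klk1b26 (712 CPM). They had at most 2 UMIs each in the control, so they reached 10 UMIs through the tissue alone. In 11-day mSGOs 6 of the 9 had 10 UMIs and 3 were called higher, near the 42.1% of all genes, but all 6 passed the filter through the 11-day library alone. Klk1b11 was highest there, with 354 UMIs in 73 barcodes (11.0 CPM, 9.92 to 12.3), and a single barcode held 54 of them. Klk1b21 was lowest, with 1 UMI. In the 7-day libraries none of the 9 reached 10 UMIs in any comparison.

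Partners of the members were read from gene lists of each pathway. In tissue, unlike Egf, most receptors and other ligands of the EGF family were below the control. Of 10 such genes none was called higher in tissue and 9 were called lower, where 47.5% of all genes were called lower. Tgfa, Areg, Ereg and Epgn, 4 of the 9, had fewer than 10 UMIs in tissue and passed the filter through the control alone, so their direction was largely set by it. The 10 genes had a median log2 ratio of -3.25 against -0.92 over all genes. Errfi1, a feedback inhibitor of the receptor, was highest in the control (166 CPM), in 11-day mSGOs (501 CPM) and in tissue (19.6 CPM), and the ligand amphiregulin (Areg) in the photon and proton libraries (217 and 205 CPM). The receptor gene Egfr, picked after its values were seen, was at 30.9, 36.3 and 36.3 CPM at 7 days, 269 CPM at 11 days and 2.02 CPM in tissue. At 11 days 4 of the 10 were called higher and 1 lower, near the 42.1% and 4.41% of all genes, with a median of 0.45 against 0.80 over all genes. After irradiation 0 of 10 were called in either library.

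The renin and kinin systems were sparse. Agt, the angiotensinogen on which renin acts, had 431 UMIs in tissue (72.7 CPM) and 0 in each mSGO library, and Agtr1a was at 0 in all 5. Atp6ap2, the prorenin receptor, was the highest of that list in every mSGO library (52.3 to 93.3 CPM). Of the kinin system, from which Klk1 takes its substrate, the kininogen Kng1 was at 0 in all 5 libraries, while Kng2 had 35 UMIs at 11 days (1.09 CPM, 0.760 to 1.52), and 0 in the other 4. It passed the filter through the 11-day library alone, so no direction is read from its call. The bradykinin receptor Bdkrb2 had 4 UMIs in tissue and 18 to 35 UMIs in the mSGOs. In tissue both kininogen genes were thus at 0 UMIs beside abundant Klk1.

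The sodium pump and its partners differed in direction. Fxyd3 was the highest of the 9 other genes in all 5 libraries, at 586, 571 and 519 CPM at 7 days, 782 CPM at 11 days and 278 CPM in tissue. At 11 days 2 of 8 were called higher and 2 lower (median log2 ratio 0.18 against 0.80 over all genes), where 42.1% and 4.41% of all genes were called. In tissue 2 of 7 were called higher and 4 lower (median -1.07 against -0.92), where 11.3% and 47.5% of all genes were called. Of the 4, Fxyd4 and Fxyd6 passed the filter through the control alone. The beta subunit Atp1b1, picked after its values were seen, was at 19.3 CPM in the control, 628 CPM at 11 days and 182 CPM in tissue. Fxyd4 was at 72.4, 11.1 and 0 CPM in the same libraries. Atp1b1 and Fxyd2 were thus both higher at 11 days and in tissue than in the control, and Fxyd4 was lower in both.

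Of the genes of duct ion transport, 8 had 10 UMIs at 11 days, and 6 were called higher and 0 lower, against 42.1% and 4.41% of all genes. Of these 6, Esrrg, Ptprd, Cftr and Kcnma1 had fewer than 10 UMIs in the control and passed the filter through the 11-day library alone, so their direction was largely set by it. The median log2 ratio of the 8 was 1.94, against 0.80 over all genes, led by Esrrg, a nuclear receptor, at 426 CPM against 0.127 CPM in the control. In tissue 5 of 8 were called higher and 1 lower, against 11.3% and 47.5% of all genes, with Kcnma1, Ascl3 and Esrrg past the filter through the tissue alone. Kcnn4, a potassium channel, was highest (107 CPM). Slc5a5 was lowest in both, with 2 UMIs at 11 days and 0 in tissue. Of the acinar products, 10 of 10 were called higher in tissue, 9 of which reached 10 UMIs through the tissue alone. Aqp5, a water channel, was the 1 acinar gene with 10 UMIs at 7 days, and it was called lower after photons (8.95 CPM) and protons (8.27 CPM) than in the control (30.8 CPM), where 0.228% and 0.253% of all genes were called lower. At 11 days 4 acinar products had 10 UMIs, 3 were called higher and Aqp5 (13.6 CPM) was called lower. The 3 (Dcpp1, Dcpp3 and Pip) were at 0 UMIs in the control and passed the filter through the 11-day library alone, and the UMIs of Dcpp1 and of Dcpp3 lay in 2 barcodes each.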

How the data were processed

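The 8 genes and the gene lists were chosen with earlier results of these data known. The authors deposited, per library, a matrix of whole-number UMI counts per gene and barcode from 10x Genomics 3′ libraries of cells sorted for exclusion of propidium iodide. The file headers name software version 3.0.1 (7-day and tissue) and 7.0.0 (11-day), the submitters' processing notes Cell Ranger 5 and mm10, and the study's methods GRCm39. Counts were used as deposited, and no matrix held a barcode under 500 UMIs. The limit of 2500 detected genes in the study's methods would keep 193, 245, 218, 637 and 25 barcodes of the control, photon, proton, 11-day and tissue libraries, so it was run as an alternative.

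Barcodes with at least 200 genes and at most 5% mitochondrial UMIs were kept. Doublets were scored with Scrublet (scanpy 1.11.5), and the highest scores up to an expected rate of 0.8% per 1000 barcodes were removed in every library, because the automatic threshold marked between 0% and 10.1%. This removed 378, 2674, 2559, 855 and 16 barcodes. UMIs were summed per library and scaled to counts per 1000000 UMIs (CPM). A 3′ library gives about 1 UMI per captured transcript, so levels were not divided by length. For log2 ratios 1 CPM was added to each level. The 95% intervals were exact Poisson (levels), conditional exact binomial (ratios) and Clopper-Pearson (shares), and were checked on simulated counts. A library at 0 UMIs was set at a floor of 3 counts. No test was run, since each group held 1 library.

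Clusters were built from 2000 variable genes, 30 principal components, 15 neighbours and Leiden (leidenalg 0.10.2, resolution 0.8), without the members, the other Klk1b genes and a gene that is not reported here. A cluster was named only where at least 3 fixed markers were 2-fold higher and at least 1 was among its 10 leading genes. Thinning drew 500 UMIs per barcode. Named genes were the members, the highest and lowest genes of each list, and the 3 genes most like each member with at least 100 UMIs. Positions and promoters were matched by symbol to RefSeq tables on GRCm38.p6 (8 and 7 of 8 members), and transcripts were compared from GENCODE vM39.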

Additional observations from a re-analysis of the deposited data

How the results depend on the processing

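No paired analysis was possible because each group held 1 library, and no library could be left out. The summed log2 ratio of the 8 members kept its value within counting error in 46 comparisons with an alternative and moved in 9. With only barcodes of at least 1% Malat1 it was 0.25 for photons and 0.17 for protons in place of -0.44 and -0.38, and with barcodes thinned to 500 UMIs it was -1.01 for photons. The direction of the photon and proton differences was therefore not fixed. At 11 days it was 5.06 under median-of-ratios scaling in place of 6.10. In tissue, in place of 11.24, it was 9.39 with at least 2500 genes, 11.85 as the mean of barcode CPM, 12.38 under median-of-ratios scaling, 13.48 without the 50 most abundant tissue genes in the total, and 12.24 with barcodes over 5% mitochondrial UMIs kept, an alternative chosen after seeing the data. The cause was not tested. Of the log2 ratios of single members under alternatives, 213 stayed within counting error and 84 moved, 20 of them with a pseudocount of 0.1 CPM, and 0 changed sign while called. With that pseudocount Klk1b9 after photons (-2.26) and Klk1b3 at 11 days (2.97) became calls. Both met the filter mainly through the library in which they were higher, so these directions were largely set by it. The 11-day calls of Klk1 (0.93), Klk1b9 (0.51) and Egf (0.76) were lost under median-of-ratios scaling, and that of Klk1b9 also as the mean of barcode CPM (0.79) and when thinned (0.24). With at least 2500 genes the tissue kept 25 barcodes, and Klk1b1 (0) and Klk1b3 (0.83) were no longer called. Over the alternatives the tissue log2 ratio ran from 10.14 to 15.95 for Klk1, 3.74 to 8.96 for Klk1b9, 2.03 to 10.12 for Klk1b22, 3.12 to 5.98 for Egf and 7.10 to 10.54 for Fxyd2. Without barcodes whose sequence occurred in another library the summed log2 ratio was -0.48 for photons, -0.38 for protons, 6.09 at 11 days and 11.23 in tissue, and 2 single ratios moved, both of Klk1b9. Of the shares of barcodes with a member under alternatives, 204 stayed within counting error and 76 moved. In the 7-day libraries depth limits every member: 3 counts correspond to 0.118 to 0.190 CPM.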
